A study of Homo sapiens with 18 samples.

Results

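Intergenic CTCF regions without acetylation were CTCF-bound stretches of DNA that lay between protein-coding genes and had their summit outside peaks of the active chromatin mark H3K27ac. They were found by merging the peaks of 6 CTCF lists wherever peaks shared 1 bp, and by taking as the summit of a region the summit of its peak with the highest −log10 q-value. A region belonged to the class if its summit lay outside every protein-coding gene body, over 1 kb and up to 100 kb from the nearest protein-coding transcription start site (TSS), and in no peak of the 6 H3K27ac lists. Members were thus chosen by measured values, namely the presence of a CTCF peak and the absence of an H3K27ac peak, and neither is reported as a finding. Of 69985 CTCF regions, 15261 (21.8%) met the rule and are called members here. An H3K27ac peak overlapped some other base of 866 of them (5.67%), and the remaining 14395 had none at any base. All libraries came from HEK293T cells, an established transformed line of human embryonic kidney origin. Fixation and ChIP-seq followed either no treatment (CTRL) or 1 day with valproic acid (VPA) at 1 mM, a compound that inhibits histone deacetylases. Each of the 4 groups of an antibody and a treatment held 3 replicates, and 6 input samples were not analysed here. The labels do not say whether replicates were separate cultures, so p-values measure the spread between these libraries, which may be technical.

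CTCF is a zinc finger protein that recognises a long DNA motif. It halts the cohesin complex as it extrudes chromatin loops, and loops are typically held by a pair of CTCF motifs that point toward each other. CTCF sites between genes therefore often mark borders of chromatin domains or insulate a gene from a neighbouring enhancer, and binding can be blocked by methylation of a CpG within the motif. H3K27ac marks active promoters and enhancers, and members are CTCF sites whose summit lay in no H3K27ac peak of these lists.

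The 2 CTCF libraries of replicate 1 stood apart. Their lists held 39818 (CTRL) and 36469 (VPA) peaks, compared with 53458 to 58782 in the other 4 lists, and across regions with a peak in all 6 lists their median log2 fold enrichment was 3.91 and 3.63, compared with 5.41 to 5.50. Results that rest on these libraries are given with and without them. Fold enrichment is the ratio of ChIP fragments over the local background at a summit, as the peak caller of the authors computed it. Peak strength was compared between lists by rank, the percentile of a peak by −log10 q-value in its own list, where 100 is the strongest. A weaker peak can come from fewer cells with CTCF bound or from weaker binding in each cell, which cannot be told apart here. Read totals are not in the lists, so sequencing depth is unknown.

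As examples of the DNA, 11 members with the CTCF core motif are printed. Of these, 4 are among the 8 strongest members and the others were picked by gene lists. Not every named member with the motif is printed, and the examples are not a representative sample of the class. The motif is a 14-base consensus, searched on both strands within 100 bp of the summit with up to 1 mismatch. Each sequence is from hg38, read 5′ to 3′ on the strand of the motif, with the 14 bases of the core in capitals and 20 bases on either side.
EIF1, chr17:41662796-41662849, minus strand: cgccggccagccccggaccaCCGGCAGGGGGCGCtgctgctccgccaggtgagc
NCF4, chr22:36856535-36856588, minus strand: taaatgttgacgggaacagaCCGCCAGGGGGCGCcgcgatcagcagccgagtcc
TMEM45B, chr11:129750962-129751015, minus strand: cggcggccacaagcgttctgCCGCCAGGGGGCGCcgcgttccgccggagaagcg
WASHC1, chr9:11376-11429, minus strand: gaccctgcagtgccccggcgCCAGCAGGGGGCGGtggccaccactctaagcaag
OR4F4, chr15:101979651-101979704, plus strand: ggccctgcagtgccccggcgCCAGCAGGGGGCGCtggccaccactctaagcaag
OR4F5, chr1:11263-11316, minus strand: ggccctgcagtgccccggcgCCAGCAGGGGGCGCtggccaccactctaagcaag
SHH, chr7:155797110-155797163, plus strand: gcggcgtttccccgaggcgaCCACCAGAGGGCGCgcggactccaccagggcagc
PAX2, chr10:100671153-100671206, plus strand: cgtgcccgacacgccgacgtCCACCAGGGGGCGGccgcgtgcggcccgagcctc
BLCAP, chr20:37564598-37564651, plus strand: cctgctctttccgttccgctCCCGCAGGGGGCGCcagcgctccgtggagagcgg
CDKN1C, chr11:2888530-2888583, minus strand: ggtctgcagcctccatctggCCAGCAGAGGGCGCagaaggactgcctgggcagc
HBQ1, chr16:188835-188888, minus strand: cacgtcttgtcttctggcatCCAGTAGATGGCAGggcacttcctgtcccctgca
Each name is the gene of the nearest protein-coding TSS, which is not shown to be a target. Positions in the core are counted from 1 at its 5′ end. EIF1, NCF4 and TMEM45B carried the substitution A3G, BLCAP carried A3C, and the other 7 matched the core at every position. Exact matches were less common in the class, with 1057 members with no mismatch and 3467 with 1 mismatch. Every printed core except that of HBQ1 held the CpG near the 3′ end that is described further on. Of all members with the motif, 25.5% held it. The OR4F4 and OR4F5 sequences had 0 differing bases over 54, and WASHC1 differed from each in 2, so reads could be placed at any of these 3 copies near chromosome ends and their values are uncertain. Exact copies were rare in the class, since 16 members (0.105%) shared a 301-bp window with another member.

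The strongest member lay 26.05 kb upstream of EIF1, which encodes a factor for choice of the start codon in translation. Its fold enrichment was 154, 222 and 167 in CTRL replicates 1 to 3 and 228, 175 and 175 in VPA, and it ranked at 99.98 or higher in all 6 lists. The member 4.44 kb upstream of NCF4, which encodes a subunit of the phagocyte NADPH oxidase, had folds of 140, 162 and 132 in CTRL and 183, 183 and 166 in VPA. An H3K27ac peak lay 0.193 kb from its summit. The replicate 1 values of these members were not far below those of the other replicates, whereas over the class as a whole they were lower. The WASHC1 member, named for a subunit of the WASH complex of endosomes, had 64.03, 160 and 117.9 in CTRL and 108, 190 and 175 in VPA. The other strongest members had their nearest TSS at NPAS4, a transcription factor of active neurons, FOXC2, a forkhead factor, PRR18, GCM1, a placental transcription factor, and TMEM45B. Of these 8, 4 held the core motif with up to 1 mismatch, NPAS4, PRR18 and GCM1 held it with 2, and FOXC2 held no match. The FOXC2 member was nonetheless strong in every library, with folds of 111, 195 and 173 in CTRL and 223, 262 and 148 in VPA.

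Members with a peak in more lists carried the motif more often. A peak in all 6 lists was found for 5763 members (37.8%, beside 39.7% of all CTCF regions), in 5 lists for 2262, in 4 for 2660, in 3 for 1276, in 2 for 1199 and in a lone list for 2101. The most frequent pattern after all 6 lists was a peak in the 4 lists of replicates 2 and 3 alone (2191 members). The core motif was present in 4524 members (29.6%, Wilson 95% confidence interval 28.9% to 30.4%), compared with 26.7% of all CTCF regions and with 0.642% of equally long windows 2 kb from the members. The share was 11.8% (10.5% to 13.3%) in members of a lone list, 14.6% in 2 lists, 15.8% in 3, 17.7% in 4, 26.5% in 5 and 49.1% (47.8% to 50.4%) in all 6. Intervals cover counting error only. With 2 mismatches allowed, the motif was found in 59.9% of members and in 5.37% of the windows 2 kb away, and with none allowed in 6.93% and 0.0557%. Where it was present, the motif sat at the summit, at a median absolute distance of 14.5 bp, and 80.2% of motifs had their centre within 30 bp. Motifs on the plus and minus strand were equally frequent, with 2262 each.

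**Figure D1:**
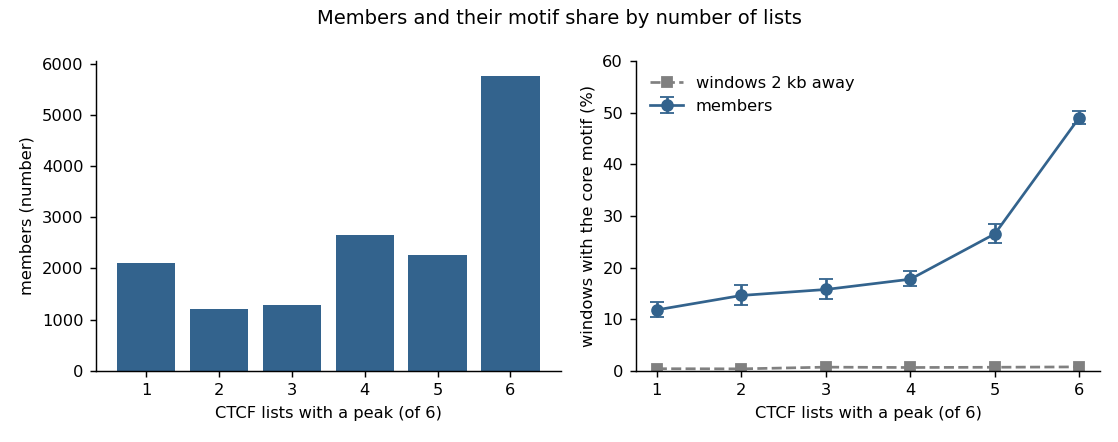
Number of members (left) and percent of members with the CTCF core motif within 100 bp of the summit (right), by the number of CTCF lists with a peak. Points are shares with Wilson 95% intervals, grey squares are windows 2 kb away, and the share rises from 11.8% in a lone list to 49.1% in all 6.

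The reverse question was how many copies of the motif in this intergenic space were occupied. The space that meets the rule on genes and distance spans 599 Mb of chromosomes 1 to 22. It holds 1795 copies of the core with no mismatch, of which 1679 (93.5%, 92.3% to 94.6%) lay in a CTCF region, acetylated or not, and 1198 (66.7%) in a member. Of 12464 copies with 1 mismatch, 5651 (45.3%, 44.5% to 46.2%) lay in a CTCF region. The tolerance differed between positions of the core. Copies with the mismatch at position 14 lay in a CTCF region in 79.7% of cases and at position 3 in 70.9%, whereas the share was 8.12% at position 7, 13.7% at position 2 and 18.5% at position 8. At position 3 the replacing base mattered to the share. Copies with A3G lay in a CTCF region in 251 of 275 cases (91.3%), close to copies without mismatch, compared with 425 of 608 (69.9%) for A3T and 107 of 221 (48.4%) for A3C. A3G is the change seen in the EIF1, NCF4 and TMEM45B members. In contrast, G7C was found in a CTCF region in 17 of 275 copies (6.18%). These shares are descriptions of 1 genome, and the copies were not separated by how well reads can be placed on them.

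**Figure D2:**
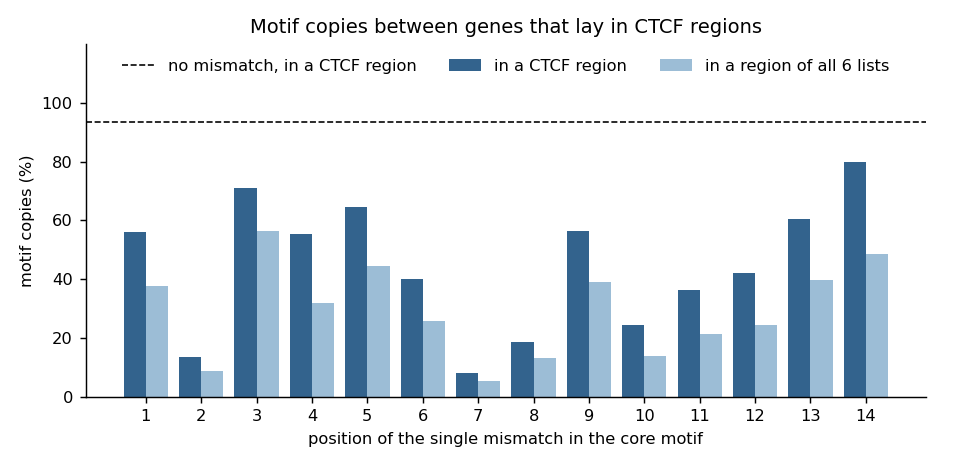
Percent of core motif copies with 1 mismatch, in intergenic sequence 1 to 100 kb from a TSS, that lay in a CTCF region of any list (dark bars) or of all 6 lists (light bars), by position of the mismatch from 1 at the 5′ end. Position 7 is lowest at 8.12% and position 14 highest at 79.7%, and the dashed line marks copies with no mismatch at 93.5%.

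Positions 12 and 13 of the core can hold a CpG. Whether methylation of this CpG affects binding was not tested. Of the copies with 1 mismatch, those with this CpG lay in a CTCF region in 72.1% of cases (1518 of 2106) and those without it in 39.9% (4133 of 10358). For copies with no mismatch the shares were 98.0% and 91.1%. These regions could be acetylated or not. Counting members alone, the order was reversed for copies with no mismatch, at 58.6% with the CpG and 71.3% without it. For copies with 1 mismatch, 48.4% with the CpG and 32.4% without it lay in a member. Among members with the motif, 1154 (25.5%) had the CpG and 83.0% of them had a peak in all 6 lists, compared with 55.5% of the 3370 without it. The median fold enrichment of members with the CpG was 30.7, 63.4 and 59.3 in CTRL replicates 1 to 3 and 17.2, 66.7 and 60.7 in VPA. Members without it had medians of 12.9, 37.0 and 36.5 in CTRL and 10.9, 31.5 and 35.8 in VPA. The order was the same in each of the 6 libraries. DNA methylation was not measured in these libraries.

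Fold enrichment followed the match to the core in every library. In CTRL replicate 2, the median fold was 59.7 for 1007 members with no mismatch, 37.5 with 1 mismatch, 16.6 with 2 and 9.22 with no match. In VPA replicate 3 the same classes had 57.7, 37.1, 16.9 and 9.24. The libraries of replicate 1 had lower values in the same order, from 30.8 to 6.71 in CTRL and from 14.5 to 7.47 in VPA. The VPA library of replicate 1 was the lowest of the 6 for members with no mismatch and its quartiles spanned 9.27 to 39.0, compared with 28.0 to 91.3 in VPA replicate 2. Of members with no mismatch, 78.7% had a peak in all 6 lists, compared with 57.6% with 1 mismatch, 36.6% with 2 and 20.4% with no match. An exact match did not ensure a strong peak. The member 8.395 kb downstream of HBQ1, in the alpha-globin cluster, matched the core exactly without the CpG, ranked at 27.7 to 33.3 in 5 lists, and had no peak in VPA replicate 1.

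**Figure D3:**
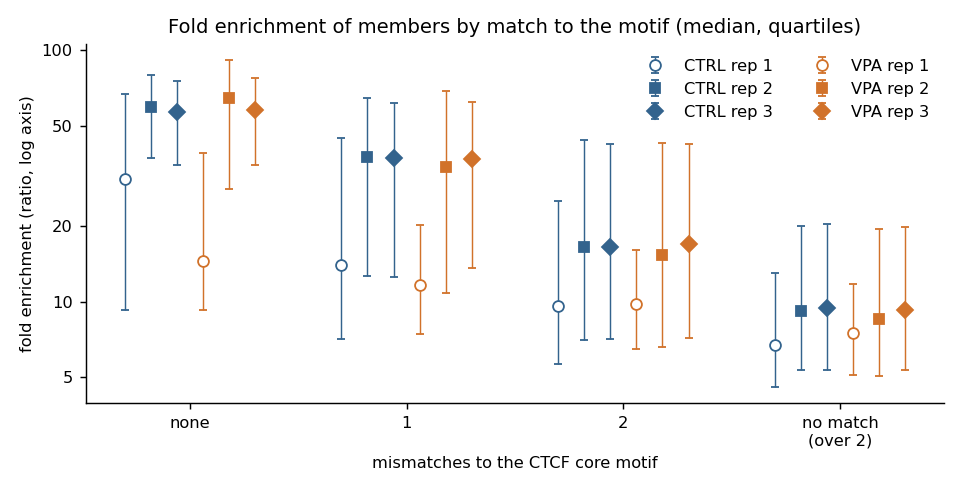
Median fold enrichment of members (log axis, ratio) by number of mismatches to the CTCF core motif, in each CTCF library, with bars from the lower to the upper quartile. In every library the medians fall from no mismatch to no match, and the libraries of replicate 1 (open circles) are lowest in each class.

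Members lay at a median of 28.8 kb from the nearest TSS (quartiles 12.2 and 54.4 kb), and 11112 (72.8%) were upstream of it. The rule leaves out gene bodies, which lie downstream of a TSS, so it favours the upstream side. The upstream share of the space itself was not measured, so the value shows no preference of CTCF. The motif share varied little with this distance, from 28.2% at 1 to 5 kb to 32.1% at 10 to 20 kb and 28.1% at 50 to 100 kb. The body of a long non-coding RNA gene contained 3517 members (23.05%), and 416 (2.73%) lay within 1 kb of the TSS of such a gene. Members occurred at 25.5 per Mb of the space, from 21.0 per Mb on chromosome 4 to 33.02 on chromosome 19 and 36.5 on chromosome 22. Between genes that converge (with both 3′ ends facing the gap) there were 28.3 members per Mb, compared with 24.5 between divergent genes and 25.3 between genes in tandem. For members in all 6 lists these densities were 11.6, 9.01 and 9.40 per Mb.

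A few gaps between genes held dense rows of members. The 240-kb gap between GGTLC2 and IGLL5 on chromosome 22 held 20, the most of any gap, at a median spacing of 7.34 kb. It is part of the immunoglobulin lambda locus, whose variable, joining and constant segments are assembled in B cells, and the annotation places 31 variable segments in it, pseudogenes included, which are not counted as protein-coding genes. Of its 13 members with the motif, 11 were on the plus strand, and 13 of its 20 members had a peak in all 6 lists. The median fold of its members was 46.2, 61.1 and 47.2 in CTRL and 28.3, 51.5 and 48.2 in VPA. The 81.7-kb gap between SULT2A1, a sulfotransferase of steroids, and BSPH1 on chromosome 19 held 19 members, and the 9 with the motif were all on the plus strand. The 99.1-kb gap between ZNF473 and IZUMO2, also on chromosome 19, held 15 members, and the 13 with the motif were all on the minus strand. These members were strong, with a median rank of 97.4 averaged over the 6 lists, and 14 of the 15 had a peak in all 6. The sequences around their summits took 13 distinct forms, so some of the 15 were exact copies there. Reads could be placed at more than 1 such copy, so the values of these copies are uncertain. The genes nearest to most members were IGLL5 (16), GGTLC2 (13), IZUMO2 (13) and OR4F3 (13). The 13 members of OR4F3, an olfactory receptor gene near an end of chromosome 5, were weaker, with 4 in all 6 lists.

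Motif direction was then compared between neighbours, since loops tend to join motifs that face each other. Among the 2828 members with the motif and a peak in all 6 lists, 564 pairs of neighbours shared a gap between genes. A neighbour is the next of these 2828 along the chromosome, and other CTCF regions between them were skipped. Of these pairs, 299 (53.0%, Wilson 95% interval 48.9% to 57.1%) pointed the same way, 26.8% (23.3% to 30.6%) pointed apart and 114 (20.2%, 17.1% to 23.7%) pointed toward each other. Among the 2242 pairs with a gene or more between them, 48.0% pointed the same way, 25.3% apart and 26.7% (24.9% to 28.5%) toward each other. Pairs in a gap were closer together, with a median spacing of 14.8 kb for tandem pairs compared with 548 kb for those across genes. Pairs that follow each other share a member, so the intervals are too narrow, and the part of the dense gaps described above was not tested. Relative to the nearest TSS, the motif of members downstream of it read toward the TSS in 542 of 1275 cases (42.5%, 39.8% to 45.2%), and that of members upstream in 1591 of 3249 (49.0%, 47.3% to 50.7%).

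Members were then grouped by the nearest gene, using 12 lists, and 0 members of any list passed the test for a change with VPA described further on. Over all members, 37.8% had a peak in all 6 lists, 29.6% held the motif, and the median of the mean rank over the 6 lists, counting a missing peak as 0, was 29.9. Imprinted loci, where an allele is active or silent by its parent of origin, had 31 members at 17 of 31 genes. Of these members, 15 were in all 6 lists and 13 held the motif. BLCAP, 36.7 kb from its member, had folds of 60.6, 101.2 and 107 in CTRL and 96.1, 106 and 108 in VPA. CDKN1C, an inhibitor of cyclin-dependent kinases, had a member 2.75 kb upstream with 50.6, 76.1 and 72.1 in CTRL and 69.8, 78.6 and 115 in VPA. Its highest value was in VPA replicate 3 and the groups overlapped. The median log2 difference (VPA minus CTRL) of the 15 imprinted-locus members measured in all libraries was 0.30, compared with 0.04 over all members measured, and 0 of the 15 passed an unadjusted p-value of 0.05. Among the other lists with measured members the median ran from −0.40 (HOX clusters, 1 member) to 0.26 (domain border loci, 24 members).

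Developmental regulators at domain borders had 59 members, of which 24 (40.7%) were in all 6 lists and 12 (20.3%) held the motif. SHH, a secreted morphogen, had a member 15.3 kb downstream at a mean rank of 99.7, with folds of 49.2, 122 and 98.3 in CTRL and 90.4, 114 and 117 in VPA. A further SHH member 2.97 kb upstream, without a match to the core, ranked at 97.8. SIX3, a regulator of forebrain and eye development, had a member 14.1 kb downstream at a mean rank of 94.9. Kidney development factors had 55 members, 19 (34.5%) in all 6 lists. The member 64.2 kb upstream of PAX2, which is required for kidney formation, had 55.8, 99.4 and 91.5 in CTRL and 105.03, 115 and 81.8 in VPA, and the EMX2 member 45.7 kb upstream ranked at 89.2.

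The lists of clustered protocadherins (53 genes), HOX clusters (39 genes) and globin loci (10 genes) held few members. Over all members, 7467 of 19111 protein-coding genes were the nearest to a member. The rule leaves out sites in gene bodies, near a TSS or in H3K27ac peaks. These counts therefore do not measure CTCF binding in the clusters as a whole. The clustered protocadherins, cell-adhesion genes chosen singly in neurons by CTCF loops, had 4 members, 2 of them in all 6 lists. The member 10.05 kb upstream of PCDHB1 matched the core exactly and had folds of 93.4, 45.5 and 48.9 in CTRL and 9.57, 64.02 and 57.2 in VPA, so that the libraries of replicate 1 were the highest and the lowest. HOX clusters, which set position along the body axis, had 7 members with a median mean rank of 2.61 and 1 in all 6 lists. The globin loci had 1, the HBQ1 member. Genes of CTCF and cohesin had 13 members at 7 of 12 genes, among them a member 10.5 kb upstream of SMC3, a cohesin subunit, with 11.2, 50.4 and 47.5 in CTRL and 14.3, 35.6 and 50.2 in VPA.

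Large families held more members at shares near those of all members. Olfactory receptor genes, used mainly in the nose, had 242 members at 120 of 399 genes, 33.1% of them in all 6 lists and 33.5% with the motif. Zinc finger genes had 300 members (38.0% and 32.3%), solute carrier genes 303 (39.9% and 32.01%), and keratin and keratin-associated genes 78 (44.9% and 34.6%). Among these, ZNF621 had a member 59.85 kb downstream at a mean rank of 98.2, SLC31A2, which takes part in copper transport, had 1 at 99.3, and a member 18.9 kb upstream of KRT7, a keratin of simple epithelia, ranked at 93.7. Histone genes had 21 members, of which 3 (14.3%) held the motif, the strongest being 13.9 kb downstream of H2BC26 at a mean rank of 81.6. The lists were chosen with earlier results of these data known, and counts are given as descriptions.

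To place the class, members were compared with 3 others within each CTCF library, using CTCF regions inside genes without acetylation (25134), over 100 kb from a TSS without acetylation (11407), and intergenic with acetylation (3865). Differences were tested over the 6 libraries with an exact sign-flip permutation test, two-sided, whose smallest p-value is 0.03125, and adjusted for 12 tests. The libraries share most regions, so they are not independent draws of regions and the p-values do not cover the choice of regions. The motif was more frequent in members than in intragenic regions by 3.50 points on average (lowest library 2.65, highest 4.44) and than in distant regions by 3.66 points (2.02 to 4.30), both higher in 6 of 6 libraries (exact p = 0.03125, adjusted p = 0.0417). Members also ranked higher, by 5.16 percentile points over intragenic and 9.78 over distant regions, and had wider peaks, by 50.9 and 91.2 bp (6 of 6 libraries each, exact p = 0.03125, adjusted p = 0.0417). Among regions with a peak in all 6 lists these rank and width differences were smaller. Rank differed by 4.08 and 5.62 points and width by 30 and 54.3 bp. Median peak width at members lay between 510 and 713 bp per library.

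Acetylated intergenic CTCF regions differed from members in the opposite direction. Their median rank was higher than that of members in 6 of 6 libraries (members minus acetylated, mean −26.6 points, from −28.5 to −21.7, exact p = 0.03125, adjusted p = 0.0417). Members had narrower peaks (−192 bp) and lower GC content (−5.56 points, median 51.7% compared with 57.3% as means over libraries), again in 6 of 6 libraries with the same p-values. Among regions with a peak in all 6 lists the differences were smaller, at −12.2 points in rank and −92.4 bp in width. The motif share of members was lower by 4.32 points on average in 5 of 6 libraries and higher in VPA replicate 1, a difference that did not pass the test (exact p = 0.0625, adjusted p = 0.0682). It reversed among regions with a peak in all 6 lists, where members held the motif more often by 1.78 points. That is a single value, since those regions are the same in every library, and it has no test. GC content differed by −0.249 points from intragenic regions (exact p = 0.25, adjusted p = 0.25) and by 1.24 points from distant regions (exact p = 0.0625, adjusted p = 0.0682).

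Values just inside and just outside the limits of the rule are given as a description. Of 608 members whose summit lay up to 200 bp outside an H3K27ac peak, 70.9% had a peak in all 6 CTCF lists and 43.9% held the motif, close to the 72.3% and 42.4% of 950 intergenic regions inside an H3K27ac peak of a lone list. Of 1292 members within 1 kb of an H3K27ac peak, 52.6% were in all 6 lists, compared with 37.4% at 1 to 10 kb and 35.0% over 50 kb away. Just inside the lower distance limit, 18.2% of 55 members at 1 to 1.2 kb from a TSS held the motif, compared with 27.3% of 77 regions at 0.8 to 1 kb. The motif was held by 33.9% of 295 members at 95 to 100 kb and by 23.4% of 304 regions up to 5 kb beyond the limit of 100 kb.

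Members were next compared between CTRL and VPA cells, by number and by strength. A peak was found at 8520, 12693 and 12303 members in CTRL replicates 1 to 3 and at 7365, 11711 and 12263 in VPA. Both libraries of replicate 1 were low and the groups overlapped. On average 11172 ± 2305 members had a peak in the CTRL and 10446.3 ± 2683 in the VPA libraries (± SD, 3 per group). The difference was −726 (exact permutation test, two-sided p = 0.5, adjusted p = 1). Within replicate numbers the difference was −1155, −982 and −40 for replicates 1, 2 and 3. With 3 libraries against 3, this test cannot give a p-value below 0.1.

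Relative to all CTCF regions of a library, members made up 21.8%, 21.7% and 21.9% of the CTRL and 20.6%, 22.0% and 22.4% of the VPA libraries (means 21.8 ± 0.109% and 21.7 ± 0.958%, exact p = 1, adjusted p = 1). VPA replicate 1 was the lowest of the 6, and without both libraries of replicate 1 the share was 0.363 points higher in VPA. The CTRL libraries had median member ranks of 45.2, 52.2 and 52.0, and the VPA libraries 46.3, 51.8 and 51.7 (exact p = 1, adjusted p = 1). Peaks at members had a median width of 586, 711 and 712 bp under CTRL and of 510, 713 and 709 bp under VPA (exact test, p = 0.7, adjusted p = 1). In replicates 2 and 3 these values differed between treatments by less than 1 rank point and by 3 bp or less.

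The motif was present at 39.0%, 32.9% and 33.3% of the members with a peak in CTRL and at 46.0%, 33.8% and 33.6% in VPA. VPA replicate 1, the shortest list, was the highest. The means were 35.1 ± 3.44% and 37.8 ± 7.10% (SD, n = 3 each), a difference of 2.75 points (exact p = 0.5, adjusted p = 1). It was 0.637 points without both libraries of replicate 1 and −1.34 points without VPA replicate 1 alone.

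**Figure D4:**
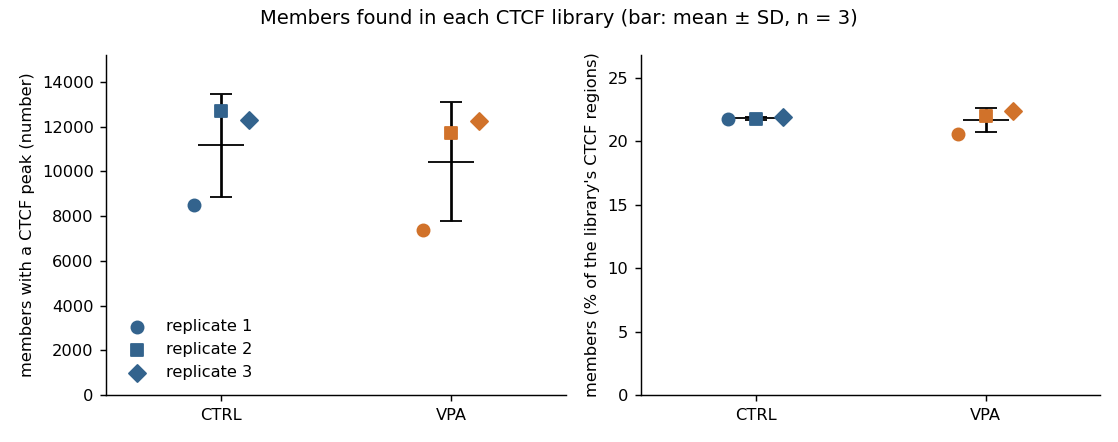
Number of members with a CTCF peak (left) and members as a percent of all CTCF regions of the library (right) in the 3 CTRL and 3 VPA libraries, with the mean and SD as bars. Replicate 1 (circles) is lowest in number in both groups, while the percentages lie between 20.6% and 22.4%.

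Fold enrichment at single members was tested with limma, on log2 fold enrichment centred on the median of each library, over the 27794 CTCF regions with a peak in all 6 lists. Of the 5763 members in this fit, 0 passed an adjusted p-value of 0.05, and 0 of all 27794 regions did (0%). At an unadjusted p-value under 0.05 there were 25 members, 7 higher and 18 lower in VPA, or 0.434%, beside 0.464% of all regions tested. No other tool was run on these ratios. The median log2 difference (VPA minus CTRL) of the members was 0.04, with 3032 (52.6%) above 0 and 2731 below, beside 57.9% of all regions above 0, and the 5th and 95th percentiles were −0.87 and 0.67. The share of members above 0 depended on the scaling and on a library. It was 43.2% without centring (median −0.08), beside 48.6% of all regions. On pileup recovered from the lists it was 66.6% (median 0.23), beside 69.8%. Without VPA replicate 1 it was 38.1%, above the 34.8% of all regions. Without centring, 31 members under the unadjusted threshold were higher and 12 lower, in all 0.746% of members beside 0.918% of all regions. The median standard error was 0.63, which limits what could be detected in a member. For the EIF1 member the difference was 0.21 ± 1.12 (SE) and for the SHH member downstream of the gene 0.46 ± 0.81. With the same regions but without both libraries of replicate 1, 251 members (173 higher and 78 lower, 4.36% beside 4.75% of all regions) were under an unadjusted p-value of 0.05 and 0 passed after adjustment. On all 45114 regions with a peak in the 4 lists of replicates 2 and 3, the lowest adjusted p-value of a member was 0.768 and that of any region was 0.085.

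Few members were confined to a treatment in the lists. A peak in 3 of 3 VPA lists and 0 of 3 CTRL lists was found for 29 members (0.19%), beside 0.186% of all CTCF regions. The reverse was found for 43 members (0.282%), beside 0.326% of all regions. Both shares were near those of all regions. These members were weak, with median ranks of 20.0 and 17.4 and mean fold enrichments of up to 9.49 and 9.06, and the motif was present in 10 of the 29 and 5 of the 43. The strongest VPA-only member lay 9.47 kb upstream of LBX1, a homeobox factor of muscle and spinal cord, with folds of 6.35, 9.40 and 8.89. Others were nearest to ZHX3, DIO3, an enzyme that inactivates thyroid hormone, and SLC35B3. The strongest CTRL-only member lay 59.96 kb upstream of YWHAQ, a 14-3-3 protein, with folds of 9.42, 5.45 and 7.33, and the next were nearest to KLHL29, RNF151, SLC41A1 and SLCO4A1. Leaving out a library relaxes the rule to 2 lists of a treatment, and with 1 left out the counts were 38 to 158 and 44 to 381. Without both libraries of replicate 1 they were 215 and 383 (1.41% and 2.51% of members, beside 1.26% and 2.79% of all regions), and without CTRL replicate 1 alone the CTRL-only count was 381.

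Distances to H3K27ac are given with no test, since the rule used the same H3K27ac lists. The median distance from a member to the nearest H3K27ac peak was 33.8, 27.8 and 28.0 kb in CTRL replicates 1 to 3 and 24.8, 21.4 and 22.0 kb in VPA, so that the groups did not overlap. The means were 29.8 ± 3.39 kb and 22.7 ± 1.83 kb (± SD, 3 libraries each), a difference of −7.11 kb. It was negative for each replicate number, with −8.94, −6.42 and −5.98 kb. An H3K27ac peak lay within 1 kb of 209, 311 and 307 members (1.37%, 2.04% and 2.01%) in CTRL and of 664, 780 and 706 (4.35%, 5.11% and 4.63%) in VPA. Acetylated peaks were more numerous after VPA, with 38441 to 40992 in VPA lists and 26299 to 29799 in CTRL lists. With all lists limited to an equal number of peaks the difference was −1.53 kb. Intragenic regions without acetylation had the same order, with median distances of 38.5, 31.6 and 31.8 kb in CTRL and 28.2, 23.6 and 24.6 kb in VPA. The share within 1 kb also rose in them, with 1.42%, 2.36% and 2.22% in CTRL and 3.96%, 5.45% and 5.07% in VPA. In distant regions without acetylation it was 0.649%, 0.815% and 0.824% in CTRL and 1.46%, 1.81% and 1.46% in VPA. No test of a difference between the classes was made.

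**Figure D5:**
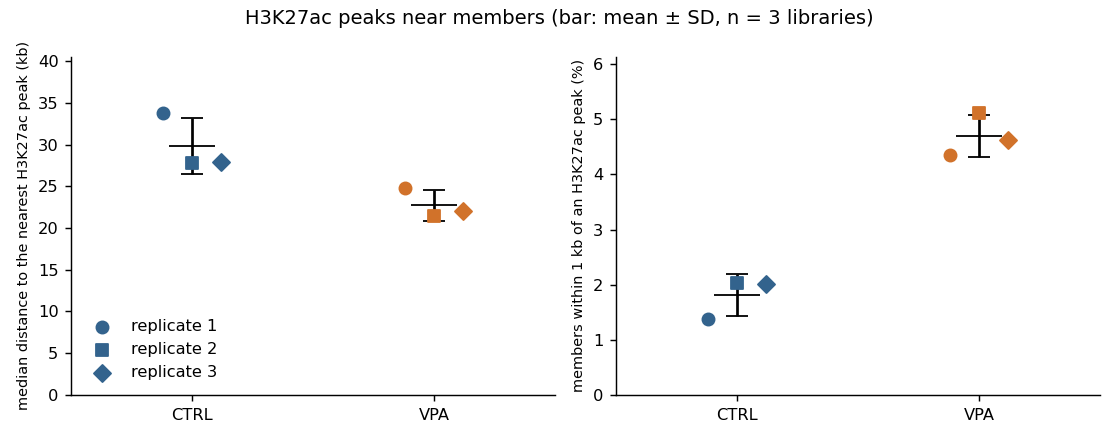
Median distance in kb from members to the nearest H3K27ac peak (left) and percent of members within 1 kb of such a peak (right) in each H3K27ac library, with the mean and SD of 3 libraries as bars. The VPA libraries lie at 21.4 to 24.8 kb, below the CTRL libraries at 27.8 to 33.8 kb, and the percentages are 4.35% to 5.11% compared with 1.37% to 2.04%.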

How the data were processed

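The 6 CTCF and 6 H3K27ac peak lists were analysed. The authors aligned paired-end reads to hg38 with Bowtie2 and called peaks with MACS3 (version 3.0.0a7 in the submitters' processing notes) separately in each library, with a q-value threshold of 0.05. Whether input libraries entered the peak calling is not given in the sources used here. The deposited lists give each peak a fold enrichment, the ratio of ChIP to local background at its summit. The −log10 q-value and the −log10 p-value were deposited alongside, as was a score, 10 times the −log10 q-value. Lists hold no read totals, so depth is unknown.

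Regions were annotated with GENCODE release 44 (19111 protein-coding genes). The named regions are the 8 members with a peak in all 6 CTCF lists and the highest mean rank, up to 5 members per direction past the limma threshold or found in a lone treatment, up to 3 members per gene list (highest mean rank), the genes nearest to most members and the gap with most members. Members, lists and tests were chosen with earlier results of these data known. A named member found in VPA lists alone is not reported here. The other dense gaps were named after their values were seen. Exact permutation tests were two-sided, over libraries, and adjusted by Benjamini-Hochberg over 6 treatment tests, distance to H3K27ac counted, and 12 class tests. Python 3.11.15, scipy 1.17.1, R 4.3.3 and limma 3.58.1 were used, and the motif search, the exact tests and limma were tested on simulated data.

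Alternatives were each library left out, a replicate block, a −log10 q-value of at least 3, lists of equal length, a peak over the summit, other motif and distance limits, and other scales for limma. Omission of both replicate 1 libraries was chosen after seeing the data.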

Additional observations from a re-analysis of the deposited data

How the results depend on the processing

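The number of members stayed between 10566 and 16409 with other limits of distance, acetylation, recurrence or gene set. No member passed limma in any setting, with up to 251 members under an unadjusted p-value of 0.05 on the same regions (4.36% beside 4.75% of all regions). On the 45114 regions of replicates 2 and 3 alone, 588 members were at that level, 338 higher and 250 lower (5.83% beside 5.84%). The replicate block gave 0 members, and 108 at that level (73 higher and 35 lower, 1.87% beside 2.05% of all regions). Replicate numbers were not taken as pairs. Deviations correlated at 0.34, −0.0451 and 0.477 between same-numbered libraries and at −0.493 to 0.409 between the others, which does not settle the pairing. As a replicate block (exact sign-flip, smallest p 0.25) the difference in members with a peak was −726 with exact p = 0.25. No call changed, and the block lowered the median standard error of members in limma from 0.63 to 0.42.

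Differences between treatments in number, share, rank, motif and width changed sign when a library was left out, and none passed the test. With 1 library left out, the difference in members with a peak ranged from −2052 to 815 (34.8 without CTRL replicate 2, 815 without VPA replicate 1) and that in share from −0.508 to 0.393 points (0.393 without VPA replicate 1, 0.363 without both libraries of replicate 1). The rank difference ranged from −2.15 to 1.97 (−2.15 without CTRL replicate 1, −0.780 without VPA replicate 2, −0.759 without VPA replicate 3, and −0.322 without both of replicate 1). The motif difference ranged from −1.34 (without VPA replicate 1) to 4.86 points, the width difference from −67.5 to 41.3 bp (41.3 without VPA replicate 1), and the distance to H3K27ac from −8.16 to −5.16 kb.

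With 5 libraries the sign-flip test cannot go below 0.0625, so class differences lost the call by construction and kept their sign. Against intragenic regions they ranged over 3.32 to 3.67 points (motif), 4.85 to 5.81 (rank) and 47.9 to 57.1 bp (width). Against distant regions the ranges were 3.53 to 3.99 points, 9.51 to 9.96 and 88.0 to 99.6 bp. Against acetylated intergenic regions they were −27.6 to −26.3 (rank), −5.97 to −5.37 points (GC) and −198 to −186 bp. Regions of all 6 lists are the same in every library, so motif and GC have no test there. GC differed by −0.995 points from intragenic, 0.995 from distant and −4.48 from acetylated regions, the motif share by 4.77 and 1.94 points from intragenic and distant regions, and by 1.78 points, with the sign reversed, from acetylated regions. The cause was not tested. Members found only in VPA numbered 38 to 158 and only in CTRL 44 to 381 with 1 library left out, and 215 and 383 without both libraries of replicate 1.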
